A study of Mus musculus with 16 samples.

Results

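The genes of protein entry into the endoplasmic reticulum, of protein folding there and of the stress response of this organelle were followed in lung endothelial cells, the inner lining of its blood vessels. Of 39 genes listed by symbol, 36 were found among the 17715 entries of the table. Sec63, Srpr and Eif2ak3 were not found under these symbols and were not analysed here. All 36 passed the filter on low values, a minimum of 1 RPKM (reads per kilobase of transcript, scaled to library depth in units of 1 M, or mega, reads) in at least 4 of the 16 libraries. The cells were sorted from the lungs of female C57BL/6N mice. The tumour was Lewis lung carcinoma, a transplantable mouse lung tumour line that was implanted under the skin. The 4 groups were mice without a tumour (d0, wild-type), mice with a primary tumour (d15), mice after resection of that tumour (d22) and mice with metastases (d36). Each group had 4 libraries from independent biological replicates. Ages, the sorting antibodies and the number of animals behind a library are not given in the sources used here. The d36 library of replicate 1 is called day 29 in its title, and its time point label, d36, was followed.

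Proteins bound for secretion or for membranes enter the reticulum through the Sec61 channel, beside which sits the translocon-associated protein (TRAP) complex, and signal peptidase then removes their signal peptides. Inside, chaperones led by BiP (Hspa5), lectin chaperones, disulfide isomerases and prolyl isomerases fold them. When unfolded protein accumulates, the sensors IRE1 (Ern1), PERK and ATF6 raise the output of these genes through spliced XBP1, ATF4 and cleaved ATF6. Endothelial cells secrete large amounts of matrix protein and von Willebrand factor through this route. RPKM values of whole genes show neither the splicing of Xbp1 nor the cleavage of ATF6.

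Depth was approximately 93.4 to 152.1 M reads per library, so that 1 RPKM stands for at least approximately 93.4 reads per kilobase. All 12 pan-endothelial markers were found and their RPKM summed to 6057 to 7165 in d0, 5356 to 6761 in d15, 5027 to 5718 in d22 and 4059 to 5347 in d36 libraries. Carcinoma cell markers (8 of 10 found) summed to 12.7 to 19.3 RPKM in d0, 18.4 to 24.6 RPKM in d15 and 19.1 to 29.1 RPKM in d22 libraries, and to 1334, 1272, 876 and 94.1 RPKM in d36 replicates 1, 7, 8 and 9. Hmga2 and Prl2c2 of that list were at 0 in d0. Pan-leukocyte markers (9 of 10 found) summed to 47.1, 88.1, 129 and 47.4 RPKM in the same d36 libraries, against 33.9 to 42 RPKM at d0. Of the tested markers, 5 of 5 carcinoma, 5 of 7 leukocyte, 3 of 3 B and plasma cell, 2 of 4 fibroblast and 2 of 10 lung epithelial genes rose at d36 over d0. The 2 lung epithelial genes were the keratins Krt8 and Krt18, which are also 2 of the 5 carcinoma genes. In the same comparison 4 of 12 endothelial markers fell and 0 of 4 mural genes passed the test. Their part in the d36 results was not tested.

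Promoter windows were searched for exact matches to sequences through which the stress response is known to act. Such a search misses elements with other letters and elements outside the window, so a gene without a match may still carry one. The endoplasmic reticulum stress response element, ERSE, pairs a binding site of the factor NF-Y with one for ATF6 or XBP1 and was searched as CCAAT and CCACG with 9 bases between them. ERSE-II was searched as ATTGG and CCACG with 1 base between them, the unfolded protein response element as TGACGTGG and the composite element bound by ATF4 as TGATGNAAT, all on both strands. RefSeq promoter windows on GRCm38.p6, from 250 bases before to 50 after a gene's start, were held for 29 of the 36 genes. Sec61a1, Tram1, Ssr2, Spcs3, Hyou1, Manf and Atf6 had no window. ERSE stood in 7 of the 29 windows and in 0.119% of all 32851 windows, and ERSE-II stood in another 2 and in 0.0365% of all windows. The other motifs were in 0 of the 29, against 0.676% of all windows for the unfolded protein response element and 0.965% for the ATF4 element. The elements are printed 5′ to 3′ in the direction of the motif, with its fixed letters in capitals.
Hspa5 ERSE: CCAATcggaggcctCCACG
Hsp90b1 ERSE nearer the start: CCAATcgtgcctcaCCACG
Hsp90b1 ERSE farther from the start: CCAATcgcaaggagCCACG
Canx ERSE: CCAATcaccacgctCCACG
Dnajc3 ERSE: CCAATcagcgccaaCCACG
Pdia6 ERSE: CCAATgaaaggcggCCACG
Calr ERSE: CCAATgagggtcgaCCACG
Creld2 ERSE: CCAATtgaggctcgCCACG
Herpud1 ERSE-II: ATTGGgCCACG
Dnajb11 ERSE-II: ATTGGcCCACG

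The matched element of Hspa5 lies at chr2:34772025-34772043 on the strand of the gene, 65 bases before its RefSeq start. Hsp90b1 was the one gene of the 29 with a pair of matches, at chr10:86705533-86705551, 107 bases before the start, and chr10:86705638-86705656, 212 bases before it. Canx has its element at chr11:50325800-50325818 and Dnajc3 has its own at chr14:118937827-118937845. The 250 bases before the RefSeq start of Hspa5, the gene of BiP, and of Ssr3, the gene with the largest change below, are set side by side. The matched ERSE of Hspa5 is in capitals. The gene spans of GENCODE M21 start farther upstream, at 34771970 for Hspa5 and at 65392623 for Ssr3. Part of each printed stretch, with the ERSE of Hspa5, thus lies inside the GENCODE span. The Ssr3 window held a match to 0 of the 4 motifs, which says only that these letters are not in it.
Hspa5, chr2:34771840-34772089, plus strand: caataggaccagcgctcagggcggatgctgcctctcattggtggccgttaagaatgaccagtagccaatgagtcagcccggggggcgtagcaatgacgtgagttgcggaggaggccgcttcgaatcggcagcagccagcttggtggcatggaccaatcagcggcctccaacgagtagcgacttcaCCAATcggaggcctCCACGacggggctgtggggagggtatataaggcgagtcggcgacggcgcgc
Ssr3, chr3:65392554-65392803, minus strand: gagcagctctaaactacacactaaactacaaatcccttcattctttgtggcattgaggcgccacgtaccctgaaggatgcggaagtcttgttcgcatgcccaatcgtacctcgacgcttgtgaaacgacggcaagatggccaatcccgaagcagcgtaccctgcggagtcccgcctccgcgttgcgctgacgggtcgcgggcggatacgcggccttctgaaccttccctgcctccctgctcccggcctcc

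Levels of the 36 genes in RPKM, averaged over the 16 libraries, spanned from 238 for P4hb, a disulfide isomerase, to 0.859 for Ern1, the IRE1 sensor. Next after P4hb came Ppib at 213, Hspa5 at 206, Pdia3 at 183 and Hsp90b1 at 103 RPKM. The library ranges of P4hb (186 to 318 RPKM) and Ppib (152 to 276 RPKM) overlapped, so these neighbours were not set apart by their spread. At the low end stood Hyou1 at 5.35, Ddit3 at 4.91 and Atf6 at 3.79 RPKM. The 5 most abundant transcripts were thus those of 3 isomerases and 2 chaperones, and the 2 least abundant those of stress sensors.

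With a primary tumour present, 2 of the 36 genes rose and 1 fell against d0 (5.56% and 2.78%). Over all 14303 tested entries 0.608% rose and 0.573% fell. After resection, 7 rose and 7 fell at d22 against d0 (19.4% each), where 8.09% of all entries rose and 7.1% fell. With metastases, 8 rose and 2 fell at d36 against d0 (22.2% and 5.56%), beside 16.6% and 7.37% of all entries. Between d22 and d15, 2 rose and 1 fell, beside 2% and 1.06% of all entries. Between d36 and d22, 6 rose (16.7%) and 0 fell, beside 8.73% and 3.07%. At an unadjusted p under 0.05, 11 genes were higher and 0 lower in that last comparison. All tests are limma tests on log2(RPKM + 1), where fold changes of genes near 1 RPKM are understated, with Benjamini-Hochberg adjustment over all tested entries. The 3 comparisons with d0 share the same d0 libraries. The d22 libraries likewise enter the comparisons with d0, d15 and d36, so the calls are not independent.

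The share of members that rose at d36 was close to the share of all entries that did, and the median log2 fold change of the members was 0.19, against 0.04 over all entries. The median was 0.03 against -0.02 at d15 and 0.09 against 0.02 at d22. The split of rises and falls depended on the scaling. With quantile normalization it was 10 to 5 at d22 and 7 to 4 at d36 against d0, 2 to 0 at d22 against d15, and 2 to 2 at d36 against d22. That setting also moved the median over all entries, by -0.037, -0.097, -0.035 and -0.069 in these comparisons. The share of all entries called with it is not given here. The 2 falls at d36 against d22 under quantile normalization were Hsp90b1 (-0.40, adjusted p = 0.0459) and Pdia3 (-0.43, adjusted p = 0.0486).

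**Figure D1:**
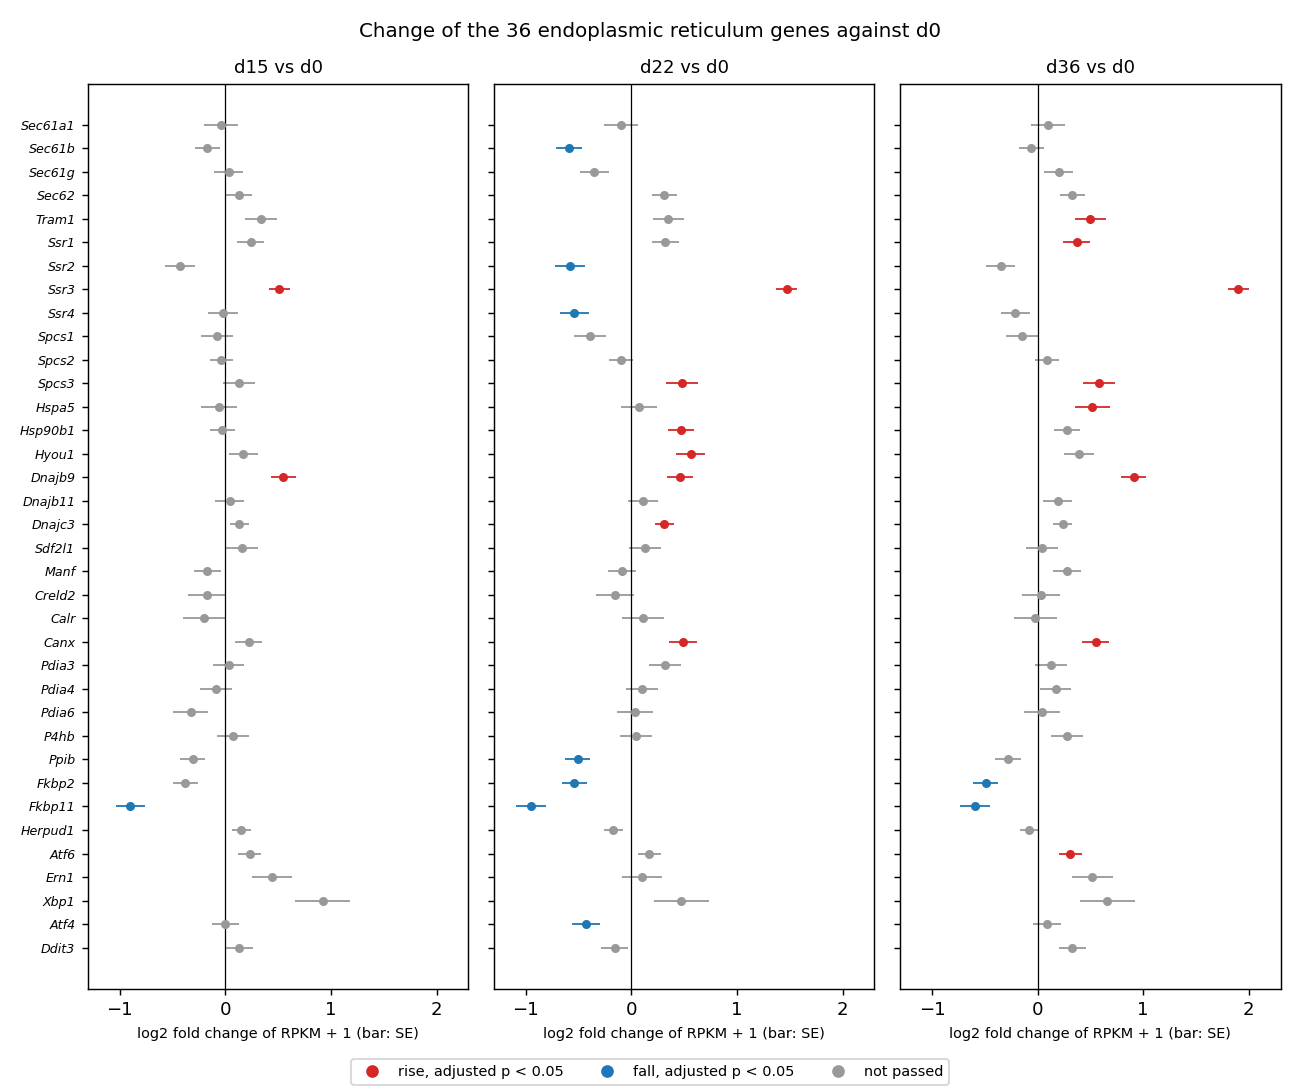
Log2 fold changes on the log2(RPKM + 1) scale of all 36 genes at d15, d22 and d36, each against d0, with standard errors from limma; red marks genes that rose, blue genes that fell and grey genes that did not pass the test. Ssr3 stands to the right of all others at d22 and d36 (1.47 and 1.90), and Fkbp11 is the lowest at each time (-0.90, -0.95 and -0.59).

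Ssr3, which codes for the gamma subunit of the TRAP complex, changed most. It had 8.92, 9.2, 10.2 and 7.91 RPKM in the d0 libraries, 15.1, 12.3, 12.9 and 13 RPKM in d15, 26.3, 27.3, 27.1 and 26.3 RPKM in d22 and 37.8, 39.5, 35.1 and 33.2 RPKM in d36 libraries. Each time point lay above the one before it with no overlap between libraries. The log2 fold change against d0 was 0.51 ± 0.10 at d15 (SE, adjusted p = 0.0216), 1.47 ± 0.10 at d22 (adjusted p = 3.25e-07) and 1.90 ± 0.10 at d36 (adjusted p = 5.23e-09). The mean was 2.95 times that of d0 at d22 and 4.02 times at d36. The steps in between passed the test as well, by 0.96 ± 0.10 at d22 over d15 (adjusted p = 7.7e-05) and 0.43 ± 0.10 at d36 over d22 (adjusted p = 0.009). The d15 rise passed in 4 of the 8 fits that leave out 1 library, with the highest adjusted p, 0.0574, without d0 replicate 4. The step at d36 over d22 was 0.25 (adjusted p = 0.0705) with quantile normalization. Ssr3 spans chr3:65379655-65392623 (mm10, minus strand), is annotated as protein coding and overlaps 0 other genes.

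The other TRAP subunits showed no such series. Ssr2, the beta subunit, had 105, 106, 111 and 120 RPKM in the d0 libraries, 88.1, 97.4, 64.8 and 79.7 RPKM in d15, 88.4, 74.6, 76.1 and 58.3 RPKM in d22 and 95.3, 84.1, 93.5 and 73.9 RPKM in d36 libraries. All libraries of the later groups lay below all of d0. Ssr2 fell at d22 by 0.58 ± 0.14 on the log2 scale (adjusted p = 0.0107), and at d36 it passed only with quantile normalization (-0.40, adjusted p = 0.013). Ssr4, the delta subunit, had 96.3, 110, 103 and 117 RPKM in the d0 libraries, 115, 120, 87.9 and 98.9 RPKM in d15, 76.7, 82.8, 73.5 and 60.4 RPKM in d22 and 71.9, 99.5, 95.7 and 103 RPKM in d36 libraries. The d22 libraries were the low ones, below all of d0 and d15. It fell at d22 against d0 (-0.54 ± 0.14, adjusted p = 0.0146) and against d15 (-0.52 ± 0.14, adjusted p = 0.0495), and both falls missed the threshold with quantile normalization (adjusted p = 0.0586 and 0.117). Without d22 replicate 6 they were at adjusted p = 0.0555 and 0.151. Ssr1, the alpha subunit, averaged 97.8 ± 12.3 RPKM at d36 and 75 ± 4.13 RPKM at d0 (SD, n = 4 each) and rose by 0.37 ± 0.13 (adjusted p = 0.0484). That call passed in 1 of 8 fits without 1 library, with an adjusted p of up to 0.155 without d36 replicate 8.

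RPKM is per length, so the subunits were set against each other, although the length behind it is not given. Their longest coding transcripts ran from 800 bases for Ssr4 to 9333 bases for Ssr1. The length and GC trend described below was not removed from these shares. Ssr3 made up 3.02 ± 0.417% of the summed RPKM of the 4 TRAP subunits in d0 libraries, 4.65 ± 0.663% at d15, 10.1 ± 1.24% at d22 and 11.7 ± 1.2% at d36 (SD, n = 4 each). The sum itself was 301 ± 17.7, 291 ± 42.2, 269 ± 32.8 and 314 ± 19.1 RPKM at these times. Ssr3 thus had the lowest RPKM of the 4 subunits at every time, and their summed RPKM changed by less than that of Ssr3. The other subunits made up most of that sum, and the complex as protein was not measured. In bulk RNA of this kind, fewer cells of a type and less RNA per cell cannot be told apart.

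**Figure D2:**
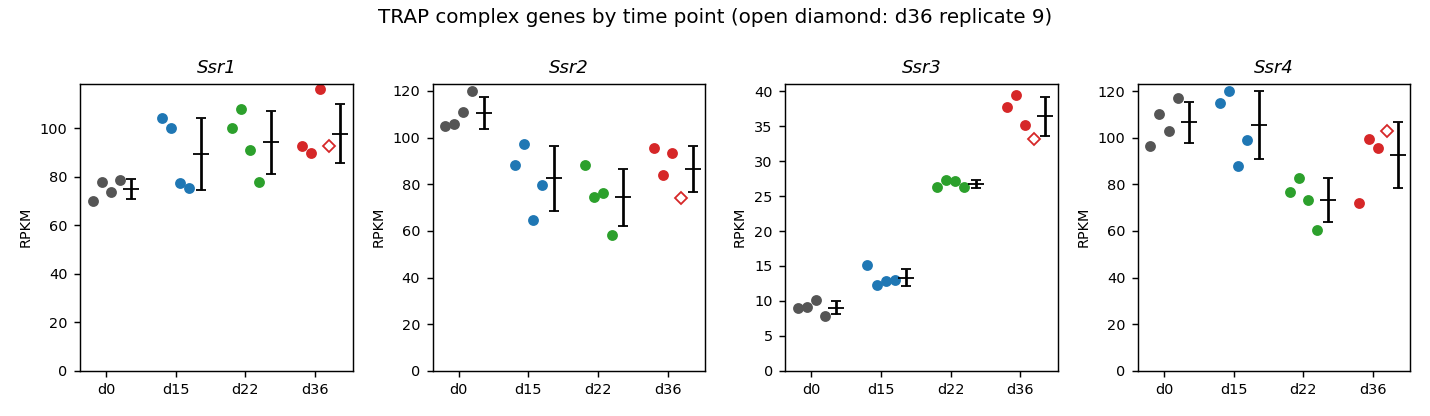
RPKM of the 4 TRAP subunits in each library at d0, d15, d22 and d36, with dots for libraries, an open diamond for d36 replicate 9 and black bars for mean ± SD; each axis starts at 0. Ssr3 has 7.91 to 10.2 RPKM in d0 and 33.2 to 39.5 RPKM in d36 libraries, with d15 and d22 in between.

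Among the channel genes, Sec61b, the beta subunit of the Sec61 channel, was low at d22. It had 68.5, 63, 56.8 and 57 RPKM in the d0 libraries, 60.9, 55.4, 46.7 and 54.3 RPKM in d15, 46.4, 44.5, 37.6 and 34.2 RPKM in d22 and 51.8, 61.2, 62.3 and 59.1 RPKM in d36 libraries. All d22 libraries lay below all libraries of the other groups. Sec61b fell at d22 against d0 (-0.59 ± 0.12, adjusted p = 0.0039) and rose at d36 against d22 (0.52 ± 0.12, adjusted p = 0.00898). Both calls rest on the same d22 libraries. The rise missed the threshold with only the 2 groups compared (0.52, adjusted p = 0.0522). It also did so after removal of the length and GC trend described below (0.24, adjusted p = 0.101). Sec61g, the gamma subunit, averaged 24.7 ± 2.51 RPKM at d36 and 16.8 ± 2.99 RPKM at d22, and rose between them by 0.55 ± 0.14 (adjusted p = 0.0169, and 0.0594 without d22 replicate 6). Tram1, a membrane protein beside the channel, averaged 38.9 ± 6.06 RPKM at d36 and 27.6 ± 6.07 RPKM at d0 and rose by 0.50 ± 0.15 (adjusted p = 0.0233). Leaving out d0 replicate 4, whose Tram1 level was the lowest of all, made the Tram1 difference 0.33 (adjusted p = 0.0822). The channel subunit Sec61a1 (averaging 47.7 to 56.3 RPKM in the 4 groups) and Sec62, which serves post-translational import (14.3 to 18.2 RPKM), passed in 0 of the 5 comparisons. With only the 2 groups compared, Sec62 rose at d22 against d0 (0.31, adjusted p = 0.0373). Sec62 also passed at d36 against d0 with no filter (0.33, adjusted p = 0.0463) and without d36 replicate 7 (0.37, adjusted p = 0.0493).

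Of the signal peptidase subunits, Spcs3 was called. It had 10.6, 10.2, 9.07 and 10.7 RPKM in the d0 libraries, 12.2, 12, 9.19 and 11.8 RPKM in d15, 16, 15.1, 15.4 and 11.9 RPKM in d22 and 21.7, 15.1, 16 and 11.2 RPKM in d36 libraries. The d36 and d22 libraries lay above all of d0, but overlapped with d15. Spcs3 rose at d22 (0.48 ± 0.15, adjusted p = 0.0436) and d36 (0.58 ± 0.15, adjusted p = 0.0128), both against d0. The d22 call passed in 1 of 8 fits without 1 library, with an adjusted p of up to 0.114. Spcs1 (48.1 to 63 RPKM) and Spcs2 (64.5 to 73.6 RPKM) passed in 0 comparisons. With only the 2 groups compared, Spcs1 fell at d22 against d0 (-0.39, adjusted p = 0.0204). Spcs1, Spcs2, Spcs3, Pdia3, Pdia6, Manf, Ppib and Ddit3 overlap a protein-coding gene on the opposite strand. Sec61a1, Sec62, Ssr2, Hsp90b1, Dnajb9, Dnajb11 and Herpud1 overlap a noncoding gene or pseudogene there. Hsp90b1, Pdia4 and Atf6 overlap noncoding genes on their own strand. Spcs2 and Calr each have 1 named pseudogene. The reads of all these genes may be shared.

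Of the 9 lumenal chaperones and cochaperones, 1 rose at d15, 4 at d22 and 2 at d36 against d0 (11.1%, 44.4% and 22.2%, beside 0.608%, 8.09% and 16.6% of all entries), and 0 fell. Dnajb9 (ERdj4), a BiP cochaperone that also restrains IRE1, had 6.78, 7.68, 7.48 and 6.41 RPKM in the d0 libraries, 12.3, 10.1, 11 and 9.86 RPKM in d15, 9.12, 11.9, 8.41 and 11.2 RPKM in d22 and 13.2, 16, 14.7 and 13.1 RPKM in d36 libraries. All libraries of the later groups lay above all of d0. Its rise against d0 was 0.55 ± 0.12 at d15 (adjusted p = 0.0326), 0.46 ± 0.12 at d22 (adjusted p = 0.0156) and 0.91 ± 0.12 at d36 (adjusted p = 9.01e-05), where the mean was 2.01 times that of d0. At d36 it was also above d22 (0.46 ± 0.12, adjusted p = 0.0181, and 0.0619 with quantile normalization). Leaving out d22 replicate 6 ended the d22 call against d0 (adjusted p = 0.0548). The d15 call passed in 0 of 8 fits without 1 library, with adjusted p of up to 0.095, and the d36 call against d0 in 8 of 8.

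Hsp90b1 (GRP94), a chaperone of integrins and Toll-like receptors, averaged 89.9 ± 6.99 RPKM in d0, 88.3 ± 10.8 RPKM in d15, 125 ± 10.6 RPKM in d22 and 110 ± 16.9 RPKM in d36 libraries (SD, n = 4 each). It rose at d22 against both d15 (0.50 ± 0.12, adjusted p = 0.0375) and d0 (0.47 ± 0.12, adjusted p = 0.0175). Leaving out 1 library raised these adjusted p to up to 0.103 (without d15 replicate 6) and 0.0598 (without d0 replicate 4). Hyou1, a nucleotide exchange factor of BiP, averaged 6.61 ± 1.08 RPKM at d22 and 4.14 ± 0.153 RPKM at d0 and rose by 0.56 ± 0.14 (adjusted p = 0.0149). Dnajc3 (p58IPK), a BiP cochaperone and inhibitor of PERK, rose by 0.31 ± 0.09 at d22 (adjusted p = 0.037), a call that passed in 1 of 8 fits without 1 library. Canx, the membrane lectin chaperone calnexin, had 14.2, 15.6, 14.5 and 13.8 RPKM in the d0 libraries, 21.8, 20.2, 13.8 and 14 RPKM in d15, 20, 22.5, 19.7 and 21.2 RPKM in d22 and 18.4, 22.8, 22.3 and 23.6 RPKM in d36 libraries. The d36 and d22 libraries were all above d0, and those of d15 fell into a high pair (replicates 3 and 4) and a low pair (replicates 5 and 6). Lung epithelial markers summed to 3446 and 3330 RPKM in the high pair and to 1452 and 1272 RPKM in the low pair, and their part in this split was not tested. Canx rose by 0.49 ± 0.13 at d22 (adjusted p = 0.0204) and 0.55 ± 0.13 at d36 (adjusted p = 0.00751), both against d0. The d22 call passed in 4 of 8 fits without 1 library and the d36 call in 8 of 8. Calr, the soluble counterpart calreticulin, averaged 36.9 to 46.4 RPKM over the groups and passed in 0 comparisons.

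BiP itself was split within d36. The per-library values of Hspa5 are given because of this split, which was seen first. It had 190, 167, 186 and 187 RPKM in the d0 libraries, 188, 157, 181 and 177 RPKM in d15, 194, 183, 181 and 211 RPKM in d22 and 338, 292, 301 and 157 RPKM in d36 libraries. Replicates 1, 7 and 8 of d36 lay above every other library, and replicate 9 was level with the lowest. Hspa5 rose at d36 against d0 by 0.52 ± 0.17 (adjusted p = 0.0397), and by 0.76 (adjusted p = 4.6e-05) without replicate 9. The call passed in 1 of 8 fits without 1 library, the one without replicate 9, and had the highest adjusted p, 0.134, without d36 replicate 1. The same replicate 9 was the lowest d36 library for 26 of the 36 genes, and it held 94.1 RPKM of summed carcinoma markers against 876 to 1334 RPKM in the other d36 libraries. Fibroblast markers summed to 44.5, 34.1 and 46.5 RPKM in d36 replicates 1, 7 and 8 and to 4.4 RPKM in replicate 9, which also had the highest endothelial and lung epithelial sums of d36 (5347 and 1138 RPKM). The part of these markers in the Hspa5 result was not tested.

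Replicate 9 was singled out by the low values of these same genes, so fits without it are no separate evidence for the added rises. Without d36 replicate 9, 15 genes rose and 2 fell at d36 against d0. Those added were Hsp90b1 (0.35, adjusted p = 0.0356), Hyou1 (0.49, adjusted p = 0.0105), Dnajc3 (0.27, adjusted p = 0.048), Manf (0.41, adjusted p = 0.0128), P4hb (0.45, adjusted p = 0.00708), Ern1 (0.69, adjusted p = 0.00746) and Xbp1 (0.79, adjusted p = 0.0326). Ern1 met the filter on low values only through d15 and d36 libraries. Manf is a secreted protein of the stress response, and its gene overlaps Rbm15b on the same strand, so their reads may be shared. Against d22, 12 genes rose without this library in place of 6, Hspa5 among them (0.69, adjusted p = 0.000174). Leaving out d36 replicate 1, 7 or 8 instead gave 7, 8 and 6 calls against d0, and 6, 3 and 5 against d22. The share of all entries called in these fits is not given here. Which cells the transcripts came from was not tested. Dnajb11 (averaging 23.5 to 26.9 RPKM), Sdf2l1 (9.24 to 10.3 RPKM) and Creld2 (23.6 to 27.3 RPKM), further chaperones or stress-induced lumenal proteins, passed in 0 comparisons with all libraries.

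**Figure D3:**
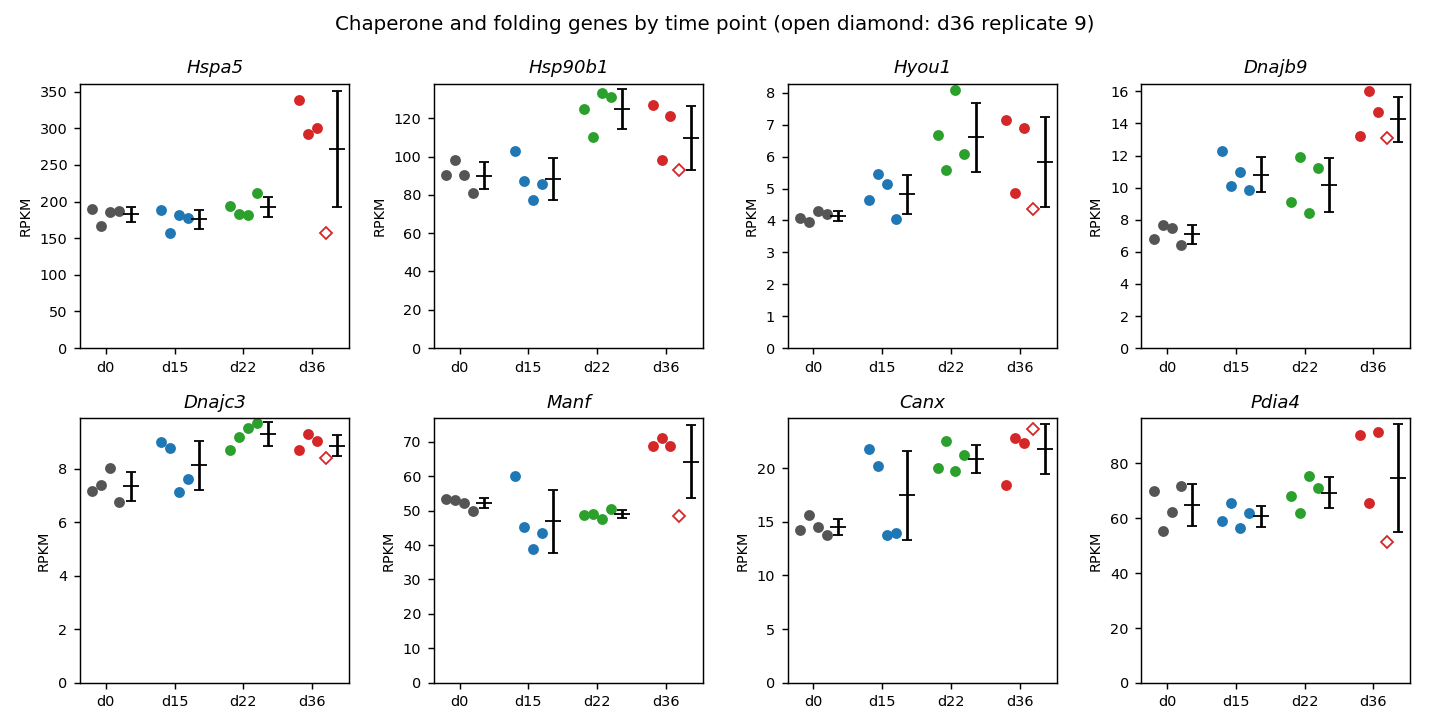
RPKM of 8 chaperone and folding genes in each library at d0, d15, d22 and d36, with dots for libraries, an open diamond for d36 replicate 9 and black bars for mean ± SD; each axis starts at 0. In the Hspa5 panel the diamond, at 157 RPKM, sits far below the other d36 libraries (292 to 338 RPKM), and in the Dnajb9 panel it is level with them.

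The disulfide isomerases Pdia3, Pdia4, Pdia6 and P4hb passed in 0 of the 5 comparisons with all libraries. P4hb averaged 272 ± 58.6 RPKM at d36 and 221 ± 24.1 RPKM at d0, and Pdia3 averaged 208 ± 12.7 RPKM at d22 and 168 ± 24.2 RPKM at d0. Under quantile normalization Pdia3 was higher at d22 (0.49, adjusted p = 0.0278).

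All 3 prolyl isomerases were lower at d22, the direction opposite to that of the chaperones called there. Fkbp11, known from secretory cells, had 28.6, 18.9, 19 and 21.9 RPKM in the d0 libraries, 12.4, 9.7, 9.88 and 13.3 RPKM in d15, 11.6, 10.9, 11.4 and 9.29 RPKM in d22 and 14.4, 16.9, 13 and 12.4 RPKM in d36 libraries. Every library of the later groups lay below every d0 library. It fell by 0.90 ± 0.14 at d15 (adjusted p = 0.0106), by 0.95 ± 0.14 at d22 (adjusted p = 0.000823) and by 0.59 ± 0.14 at d36 (adjusted p = 0.00689), and each of these calls passed in 8 of 8 fits without 1 library. Summed B and plasma cell markers (7 of 10 found) were 1.49 to 3.82 RPKM in d0, 1.63 to 2.69 RPKM in d15, 1.4 to 7.89 RPKM in d22 and 13.5 to 53.9 RPKM in d36 libraries. Lung epithelial markers (11 of 12 found) summed to 787 to 1972 RPKM in d0, 1272 to 3446 RPKM in d15, 1131 to 1630 RPKM in d22 and 462 to 1138 RPKM in d36 libraries. Their part in the Fkbp11 result was not tested.

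Fkbp2, a smaller lumenal isomerase, had 82, 78.2, 70.3 and 63.4 RPKM in the d0 libraries, 64.6, 58.6, 47.1 and 55 RPKM in d15, 52.3, 51.5, 44.5 and 51.5 RPKM in d22 and 45.1, 60.7, 49.6 and 52.5 RPKM in d36 libraries. All d22 and d36 libraries lay below all of d0. Fkbp2 fell by 0.54 ± 0.12 at d22 (adjusted p = 0.00729) and 0.49 ± 0.12 at d36 (adjusted p = 0.0078). Ppib (cyclophilin B), which takes part in collagen folding, had 231, 242, 276 and 275 RPKM in the d0 libraries, 199, 248, 174 and 209 RPKM in d15, 187, 185, 194 and 152 RPKM in d22 and 210, 204, 219 and 211 RPKM in d36 libraries. The d22 and d36 libraries all lay below those of d0. It fell by 0.51 ± 0.12 at d22 (adjusted p = 0.00911). At d36 it passed against d0 only with quantile normalization (-0.33, adjusted p = 0.0246) or after removal of the length and GC trend described below (-0.31, adjusted p = 0.0262).

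Of the sensors and transcription factors of the stress response, 0 of 5 passed at d15 against d0, 1 fell at d22 and 1 rose at d36. Of all entries, 0.608% rose and 0.573% fell at d15, 7.1% fell at d22 and 16.6% rose at d36. Xbp1, the factor that IRE1 activates by splicing, had 44.2, 34.4, 30.2 and 13.7 RPKM in the d0 libraries, 60.4, 43.8, 55.8 and 58.8 RPKM in d15, 36.3, 47.2, 31.5 and 44.7 RPKM in d22 and 39.8, 58.6, 51.9 and 34.3 RPKM in d36 libraries. Its d0 libraries were widely spread and overlapped with every other group. The difference was 0.92 ± 0.26 at d15 (adjusted p = 0.0893) and 0.66 at d36 (adjusted p = 0.0776), neither past the threshold. The d36 difference passed without d0 replicate 1 (0.87, adjusted p = 0.0268) or without d36 replicate 9.

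Ern1 had 0.97, 0.497, 0.457 and 0.189 RPKM in the d0 libraries, 0.746, 0.779, 1.57 and 1.15 RPKM in d15, 0.602, 0.631, 0.578 and 0.632 RPKM in d22 and 0.877, 2.14, 1.41 and 0.513 RPKM in d36 libraries. Every later group overlapped with d0, and the d22 libraries all lay below those of d15. Of the 5 comparisons 0 passed, the smallest adjusted p being that of d36 against d0 (0.52 ± 0.19, adjusted p = 0.0624). Atf6 had 2.99, 3.36, 3.6 and 2.92 RPKM in the d0 libraries, 3.7, 4.85, 3.49 and 3.76 RPKM in d15, 3.42, 4.34, 3.48 and 3.8 RPKM in d22 and 4.64, 3.99, 4.36 and 3.97 RPKM in d36 libraries. All d36 libraries were above all of d0, and Atf6 rose by 0.31 ± 0.11 (adjusted p = 0.0443). With quantile normalization the difference was 0.17 (adjusted p = 0.261), and with the length and GC trend removed 0.02 (adjusted p = 0.889). The call passed in 2 of 8 fits without 1 library, with an adjusted p of up to 0.12.

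Atf4, the factor downstream of PERK and of amino acid shortage, had 83.8, 87.7, 80.9 and 88.8 RPKM in the d0 libraries, 79.7, 81.8, 90.6 and 89 RPKM in d15, 67.8, 71.9, 59.9 and 53.5 RPKM in d22 and 95.7, 112, 90.5 and 69.4 RPKM in d36 libraries. The d22 libraries were the low ones, with no overlap with d0 or d15. Atf4 fell at d22 against d0 (-0.43 ± 0.13, adjusted p = 0.0325, up to 0.11 when a library was left out, and 0.134 with quantile normalization) and rose at d36 against d22 (0.52 ± 0.13, adjusted p = 0.0157). Ddit3 (CHOP), a target of ATF4 linked to cell death, had 4.95, 4.03, 3.99 and 5.34 RPKM in the d0 libraries, 4.15, 6.22, 5.25 and 4.78 RPKM in d15, 3.7, 4.27, 4.79 and 3.22 RPKM in d22 and 6.26, 6.35, 5.24 and 6.03 RPKM in d36 libraries. The d36 libraries were all above those of d22. Ddit3 rose between them by 0.49 ± 0.13 (adjusted p = 0.0224). Without d22 replicate 6 neither rise over d22 passed (adjusted p = 0.0605 for Atf4 and 0.084 for Ddit3). Under quantile normalization neither rise over d22 passed (adjusted p = 0.0768 for Atf4 and 0.0635 for Ddit3), nor did it with the length and GC trend removed (0.0635 and 0.234) or with only the 2 groups compared (0.0896 and 0.0678). Ddit3 overlaps genes on the opposite strand and whether counting used strand is not given in the sources used here, so reads of those genes may be counted in it. Herpud1, a degradation factor that is a classic stress target, averaged 63.7 to 79.6 RPKM and passed in 0 comparisons.

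**Figure D4:**
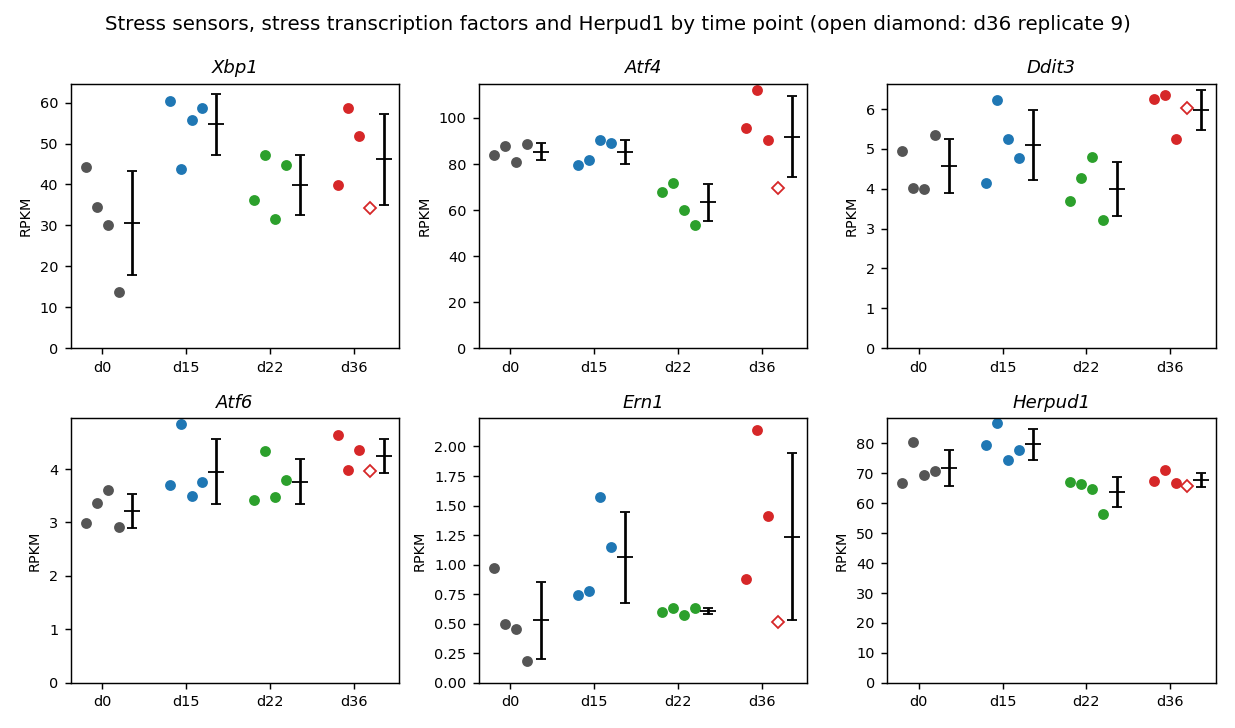
RPKM of the stress sensors, stress transcription factors and Herpud1 in each library at d0, d15, d22 and d36, with dots for libraries, an open diamond for d36 replicate 9 and black bars for mean ± SD; each axis starts at 0. Atf4 is lowest at d22 (53.5 to 71.9 RPKM), and the d0 values of Xbp1 are spread from 13.7 to 44.2 RPKM.

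The 9 genes with an ERSE or ERSE-II gave 3 rises and 0 falls at d22 against d0 (Hsp90b1, Dnajc3 and Canx) and 2 rises and 0 falls at d36 (Hspa5 and Canx), where 8.09% and 16.6% of all entries rose. These 5 calls did not pass with the length and GC trend removed, with adjusted p from 0.0538 for Hsp90b1 to 0.735 for Dnajc3. At d15 the 9 gave 0 rises and 0 falls. The 20 genes with a window and neither element gave 2 rises and 6 falls at d22, and 3 rises and 2 falls at d36. Of all entries, 7.1% fell at d22 and 7.37% at d36. The 7 genes with no window gave 2 rises and 1 fall at d22, and 3 rises and 0 falls at d36. All 6 rises at d36 over d22 were among the 20, and 8.73% of all entries rose there. These small counts were not tested against each other. The median log2 fold change of the 9 was 0.11 at d22 and 0.19 at d36, and that of the 20 was -0.03 and 0.15. Ssr3 and Dnajb9, which had the largest rises at d36 against d0, belong to the genes with no exact match to either element in the window.

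The called genes differed in transcript length. The 7 that rose at d22 against d0 had a longest coding transcript of 2461 to 5141 bases (median 3466), and the 7 that fell had one of 564 to 1725 bases (median 892). Over the 36 genes, the d22 change had a Spearman correlation of 0.73 with length and -0.67 with GC content, and over 10112 entries of all kinds 0.43 and -0.37. At d36 against d0 these were 0.70 and -0.64 over the 36 genes and 0.23 and -0.36 over all. The correlations are across genes that share libraries, and carry no test.

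A trend on length and GC content could be removed only over the 10112 entries with a known transcript length. On these entries 7 of the genes rose and 7 fell at d22 before removal, and 10 rose and 2 fell at d36, both against d0. After removal 2 rose and 3 fell at each of these times. Over all 10112 entries, 877 rose and 901 fell at d22 before removal, and 335 rose and 424 fell after it. At d36 the numbers over all were 2095 and 782 before removal and 1016 and 1515 after it, so that falls outnumbered rises. Ssr3 (1.27, adjusted p = 1.22e-06) and Hyou1 (0.54, adjusted p = 0.0285) still rose at d22. Fkbp11 (-0.68, adjusted p = 0.0068), Fkbp2 (-0.39, adjusted p = 0.0367) and Sec61b (-0.34, adjusted p = 0.0319) still fell there. At d36, Ssr3 (1.56, adjusted p = 4.94e-08) and Dnajb9 (0.58, adjusted p = 0.00249) rose and Fkbp11 (-0.58, adjusted p = 0.00531), Fkbp2 (-0.48, adjusted p = 0.00514) and Ppib fell. The calls at d15 were the same 3 genes, with Ssr3 at 0.46, Dnajb9 at 0.51 and Fkbp11 at -0.81. Canx, Spcs3, Hspa5, Tram1, Ssr1 and Atf6 did not pass at d36 under this setting. At d36 against d22, Ssr3 rose (0.29, adjusted p = 0.0466) and Hsp90b1 fell (-0.36, adjusted p = 0.0386).

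**Figure D5:**
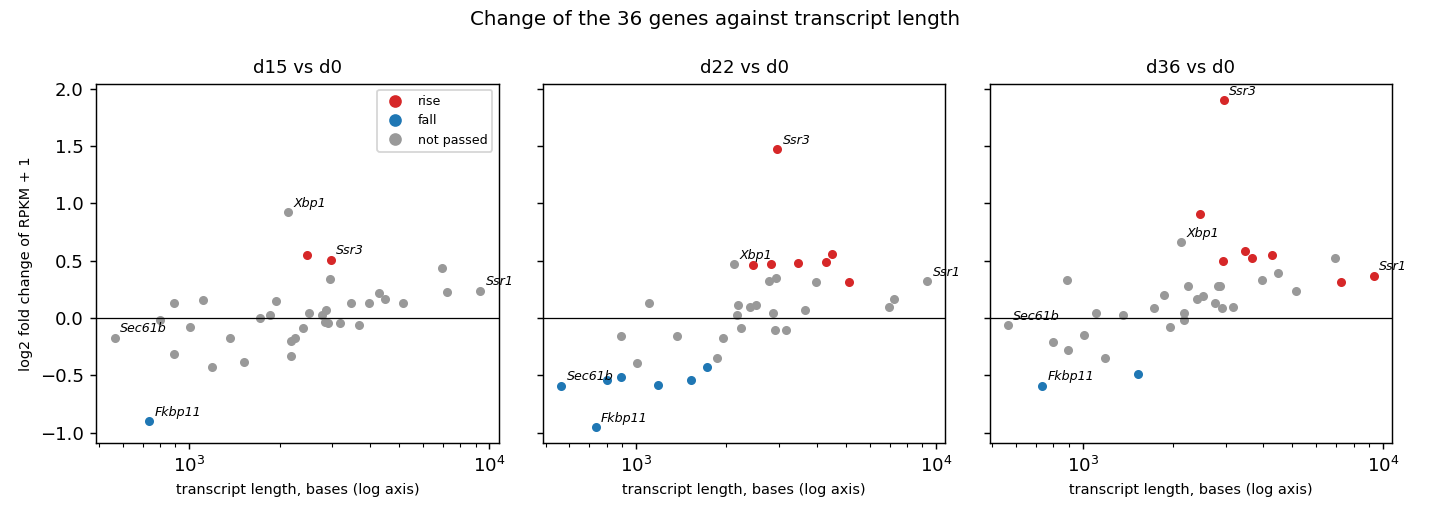
Log2 fold change of each of the 36 genes against the length of its longest coding transcript in bases on a log axis, at d15, d22 and d36, each against d0. Longer transcripts have higher values at d22 and d36 (Spearman 0.73 and 0.70), and at these times Ssr3 lies above the others and Fkbp11 below them.

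Other genes of the same organelle were taken from a wider list of 90, of which 80 were tested. At d15 against d0, 1 rose, the pseudokinase Trib3 (0.57, adjusted p = 0.0461), and 1 fell, the oligosaccharyl transferase subunit Ostc (-0.50, adjusted p = 0.0498), beside 0.608% and 0.573% of all entries. At d22 against d0, 10 rose and 9 fell (12.5% and 11.2%, beside 8.09% and 7.1% of all entries). The smallest adjusted p were those of the oxidoreductase subunit of that transferase Tusc3 (1.21, adjusted p = 0.00057), the mannosidase-like degradation factor Edem3 (0.80, adjusted p = 0.000745) and the disulfide isomerase Tmx3 (0.73, adjusted p = 0.0011). At d36 against d0, 19 rose and 3 fell (23.8% and 3.75%, beside 16.6% and 7.37%). Here the smallest adjusted p were those of Tusc3 (1.13, adjusted p = 0.000295), the thiol retention factor Erp44 (0.89, adjusted p = 0.000328) and Edem3 (0.76, adjusted p = 0.000357). At d22 against d15, 3 rose and 1 fell: Tusc3 (0.96, adjusted p = 0.00578), its paralogue Magt1 (0.46, adjusted p = 0.0114) and Edem3 (0.47, adjusted p = 0.0413) rose and the transferase subunit Stt3b (-0.69, adjusted p = 0.0464) fell. At d36 against d22, 6 rose and 0 fell (13 and 0 at an unadjusted p under 0.05), beside 8.73% and 3.07% of all entries, with the smallest adjusted p for the stress phosphatase subunit Ppp1r15a (0.86, adjusted p = 0.0148), the signal recognition particle gene Srp19 (0.41, adjusted p = 0.0151) and asparagine synthetase, Asns (0.76, adjusted p = 0.0244). Of the 12 tested genes of the ATF4 and ATF6 axis in the wider list, 3 rose at d36 over d22 (25%, beside 8.73% of all entries) and 9 did not pass, Trib3 (0.14) and Chac1 (0.22) among them. At d36 against d0, 5 of the 12 rose and 1 fell (41.7% and 8.33%, beside 16.6% and 7.37% of all entries). Atf3 (2.67, adjusted p = 0.00172) and Ppp1r15a (1.14, adjusted p = 0.00125) were among those that rose there, and Creb3 fell (-0.42, adjusted p = 0.0273).

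In the authors' deposited table, which does not name its comparison group, Ssr3 had log2 fold changes of 0.59, 1.57 and 1.98 at d15, d22 and d36. In the authors' deposited table Dnajb9 had 0.65, 0.54 and 0.99, and Fkbp11 had -0.89, -0.98 and -0.64. All 9 of these carried an adjusted p of at most 0.0127 in the authors' deposited table. It also had an adjusted p under 0.05 for genes not called here at the same time. At d22 these were Sec62 (0.36, adjusted p = 0.00676), Spcs1 (-0.35, adjusted p = 0.0085), Ssr1 (0.35, adjusted p = 0.0124) and Pdia3 (0.34, adjusted p = 0.015). At d36 they were Ssr2 (-0.36, adjusted p = 0.0105) and Ppib (-0.29, adjusted p = 0.0441).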

How the data were processed

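Total RNA came from a PicoPure extraction, and 10 ng of it went into SMARTer Ultra Low libraries, per the labels' protocols. The authors deposited RPKM values for 17715 entries in 16 libraries, per the file headers. That deposited table also gives log2 fold changes and adjusted p-values for each time point, per the file headers. STAR, DESeq2 and the build mm10 are named in the submitters' processing notes, which state neither a version nor a role. The annotation, the length behind RPKM and the use of strand are not given in the sources used here. Depth was estimated from the size of 1 read in low RPKM values: 330 of 4296 low entries came out whole in all libraries, within 0.1 read and up to 40 reads. Most did not, so no count test was run.

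Here log2(RPKM + 1) of the 14303 entries with RPKM of at least 1 in at least 4 libraries was fitted with limma 3.58.1 in R 4.3.3, with an intensity trend, over the 4 groups together. The 5 contrasts were tested two-sided, with Benjamini-Hochberg adjustment over all tested entries and a threshold of 0.05. Alternatives were a pseudocount of 0.1, no filter, quantile normalization, a replicate block, only the groups compared, each library left out, and removal of a length and GC trend (natural splines with 4 degrees of freedom, GENCODE M21 lengths, 10112 entries). The genes and lists were chosen with earlier results of these data known. Values per library are given for the 10 genes with the smallest adjusted p and for the sensors and transcription factors, and called genes are named. Of the wider list the 3 smallest adjusted p per comparison are named. The marker lists were endothelial, leukocyte, B and plasma cell, epithelial, fibroblast, mural and carcinoma. Summed over its 7 of 10 found genes, the fibroblast list ran from 4.4 to 46.5 RPKM at d36 and from 3.09 to 3.97 RPKM at d0. The mural list (5 of 10 found) ran from 11.8 to 22.8 RPKM at d36 and from 9.35 to 15.6 RPKM at d0.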

Additional observations from a re-analysis of the deposited data

Results flagged for a closer look

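In 7 of 144 sets of 4 libraries (36 genes in 4 groups), 1 library stood apart by Dixon's test at its 95% critical value, and chance gives about 1 in 20 (7.2 of 144). At d36, Manf had 48.3 RPKM in replicate 9, against 68.7 to 71.1 RPKM in the others, and Ssr1 had 116 RPKM in replicate 8, against 89.7 to 92.7 RPKM. At d22, Sec61g had 12.3 RPKM in replicate 6, against 18.2 to 18.3 RPKM in the others, Fkbp2 had 44.5 RPKM in replicate 5, against 51.5 to 52.3 RPKM, and Pdia6 had 88.3 RPKM in replicate 4, against 108 to 112 RPKM. At d15, replicate 5 stood apart for Spcs3 with 9.19 RPKM, against 11.8 to 12.2 RPKM in the others, and for Calr with 29.4 RPKM, against 38.3 to 40.1 RPKM. That library was the lowest of its group for 22 of the 36 genes.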

How the results depend on the processing

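The numbers of genes called were 3 at d15, 14 at d22 and 10 at d36 against d0, 3 at d22 against d15 and 6 at d36 against d22. With the length and GC trend removed they were 3, 5, 5, 1 and 2 in that order. This setting also tests fewer entries (10112), on which 12 genes were called at d36 against d0 and 2 at d22 against d15 before removal; the cause of the lower numbers was not tested. With only the 2 groups compared, 5 genes were called at d36 against d0 and 1, Ssr3, at d36 against d22. Those fits use fewer libraries; Spcs3 (adjusted p = 0.0501), Ssr1, Tram1, Hspa5 and Atf6 did not pass at d36 against d0. Leaving out 1 library gave 1 to 2, 8 to 12, 6 to 17, 1 to 3 and 3 to 12 calls, with the highest at d36 when replicate 9 was left out. The numbers were not taken to pair the samples: the correlations of the deviations of same-numbered libraries ran from -0.11 to 0.22 over 9 pairs, of which 2 were over 0.1, and for numbers 4, 5 and 6 shared by d22 and d15 they were -0.08, -0.11 and 0.08. A replicate block gave 0 calls at d15 against d0 (7 higher and 2 lower at an unadjusted p under 0.05 by limma), 8 at d22 against d0, 5 at d36 against d0, 4 at d22 against d15 and 0 at d36 against d22 (4 higher and 0 lower unadjusted). The d36 contrasts under the block rest on replicate 1. The share of all entries called is not given here for the block, the fits of 2 groups or the fits without 1 library. Over single genes, 2332 of 2520 values kept their side of the threshold, 153 lost a call, 35 gained one and 0 reversed a call. Values that passed in neither fit were counted as kept whatever their direction, and some of them changed sign. Ern1 lay between 0.189 and 2.14 RPKM, so that its changes are understated on the log scale.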
